A study of Mus musculus with 32 samples.

Results

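The 10 genes of fatty acid synthesis and desaturation followed here in kidney cortex were each found by its symbol in the table of counts, so that the set holds 10 of the 32544 genes listed. They are Srebf1 and Mlxipl, which encode transcription factors, Acly, Acaca and Fasn of fatty acid synthesis, the elongase Elovl6, and the desaturases Scd1, Scd2, Fads1 and Fads2. RNA from kidney cortex was sequenced from 32 mice of 25 weeks, in 8 groups of 4 given by sex, genotype and treatment. Every mouse carried the Col4a3tm1Dec allele on the C57BL/6J background: Alport mice were Col4a3-/- and lacked the α3 chain of type IV collagen, and the control mice were not wild type but heterozygous (Col4a3+/-). From 10 weeks of age, mice received a purified diet, either alone (vehicle) or with nicotinamide riboside (NR), a precursor of NAD+, at 0.5% by weight. Kidney cortex is a mixture of tubules, glomeruli, vessels and interstitial cells, so that fewer cells of a type and less RNA per cell cannot be told apart in these values.

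Cells make fatty acids from citrate that leaves the mitochondrion. ATP citrate lyase (Acly) splits it to acetyl-CoA, acetyl-CoA carboxylase 1 (Acaca) carboxylates this to malonyl-CoA, and fatty acid synthase (Fasn) builds palmitate from both. Elovl6 lengthens palmitate toward stearate, stearoyl-CoA desaturases (Scd1, Scd2) introduce the double bond of oleate and palmitoleate, and the δ5 and δ6 desaturases (Fads1, Fads2) act on dietary polyunsaturated fatty acids. Srebf1 encodes SREBP-1, which is held in the endoplasmic reticulum by INSIG proteins and, once cleaved, turns on most of these genes, whereas Mlxipl encodes ChREBP, which answers to sugar metabolites. In the kidney, the proximal tubule burns fatty acids as its main fuel, and its synthesis of them is low next to that of liver and fat.

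In the GENCODE M21 annotation of GRCm38, 4 of the genes lie on chromosome 11: Srebf1 at chr11:60199089-60222581 and Fasn at chr11:120805846-120824547 and Acly at chr11:100476353-100528000 on the minus strand, and Acaca at chr11:84129672-84401651 on the plus strand. A further 4 lie on chromosome 19 in clusters of like genes, Scd2 (chr19:44293674-44306864, plus strand) near Scd1 (chr19:44394455-44407879, minus strand), with Scd4 between them, and Fads2 (chr19:10062765-10101746, minus strand) near Fads1 (chr19:10182888-10196877, plus strand). Elovl6 is at chr3:129532355-129638495 and Mlxipl at chr5:135089890-135138382, both on the plus strand. Counts are per gene, and the exons over which they were taken are not given in the sources used here. Scd1 and Scd2 have near copies in Scd3 and Scd4, and how reads that fit several copies were shared is not given in the sources used here, so that values of the stearoyl-CoA desaturases are uncertain to that extent.

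Promoter sequences of 7 of the 10 genes, in 10 windows of 250 bases before a transcription start, were read from RefSeq (GRCm38.p6). Shown are stretches for Srebf1 and Fasn, whose levels were correlated among mice of a group by Pearson's r but not by Spearman's rho, and for Mlxipl, which went the other way under NR in controls. Each is written 5′ to 3′ on the gene's strand, with capitals for the motifs searched on both strands.
Srebf1: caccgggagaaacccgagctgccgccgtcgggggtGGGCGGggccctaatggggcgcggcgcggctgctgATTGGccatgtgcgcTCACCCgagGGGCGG
Fasn: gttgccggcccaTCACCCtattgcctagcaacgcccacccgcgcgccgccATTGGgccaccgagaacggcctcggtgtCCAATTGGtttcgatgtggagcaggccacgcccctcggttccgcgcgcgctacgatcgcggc
Mlxipl: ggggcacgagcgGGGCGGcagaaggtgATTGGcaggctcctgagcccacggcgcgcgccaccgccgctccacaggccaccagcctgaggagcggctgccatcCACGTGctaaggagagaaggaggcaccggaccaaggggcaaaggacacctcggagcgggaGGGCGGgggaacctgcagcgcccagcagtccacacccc
The Srebf1 stretch (chr11:60210472-60210571, minus strand) lies before an internal start of the gene and holds TCACNC at 15 bases, CCAAT on the opposite strand at 30 bases, and GGGCGG at 65 and 6 bases before the start. The Fasn stretch (chr11:120824548-120824687, minus strand) holds TCACNC at 128 bases and CCAAT, on either strand, at 90, 62 and 59 bases, the last pair overlapping. The Mlxipl stretch (chr5:135089690-135089889, plus strand) holds CACGTG at 98 bases, CCAAT on the opposite strand at 173 bases, and GGGCGG at 188 and 38 bases. TCACNC is the core of the sterol regulatory element TCACNCCAC and is common: it was found in 37.6% of 32851 mouse windows of the same length, against 1.05% for TCACNCCAC, which among the 10 windows stood only in a second one of Mlxipl. CCAAT was in 33.8%, the GC box GGGCGG in 32.7% and CACGTG, an E-box, in 6.02%. The windows of Acaca and Elovl6 held 0 matches of any of these motifs, and 2 of the 3 Srebf1 windows held no TCACNC. The Acaca window (chr11:84195188-84195437, plus strand) lies inside the gene, before an internal start. The bases before the annotated start of Acaca were not searched. These matches describe letters only.

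Library totals were 16621944–27778797 counts, and the 10 genes had 412–19709 counts in every mouse, and the counts of every pair of mice in a group differed by at least 7.96 times the chi-square expected from counting alone. Levels are CPM, read counts relative to library size, scaled by TMM, a method that sets the middle of the genes equal between libraries. TMM factors were 0.828–0.998 in controls and 0.929–1.25 in Alport mice, and with library totals alone the median over all genes tested moved by 0.34 (log2) in the comparison of genotypes in males and 0.26 in females. The allele leaves a Col4a3 transcript in these counts: the ratio of Col4a3 to its partner Col4a4 was lower in each of the 16 Alport mice (log2 ratio −1.77 to −1.28) than in each of the 16 controls (−0.90 to −0.28), while Col4a3 itself overlapped between NR-treated control males (59.4–160 CPM) and vehicle-treated Alport males (54.6–83.2 CPM). In all 16 males the Y-linked genes Ddx3y and Eif2s3y lay above every female. The cortex showed its proximal tubule markers at 3852–32781 CPM summed over 10 genes.

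**Figure D1:**
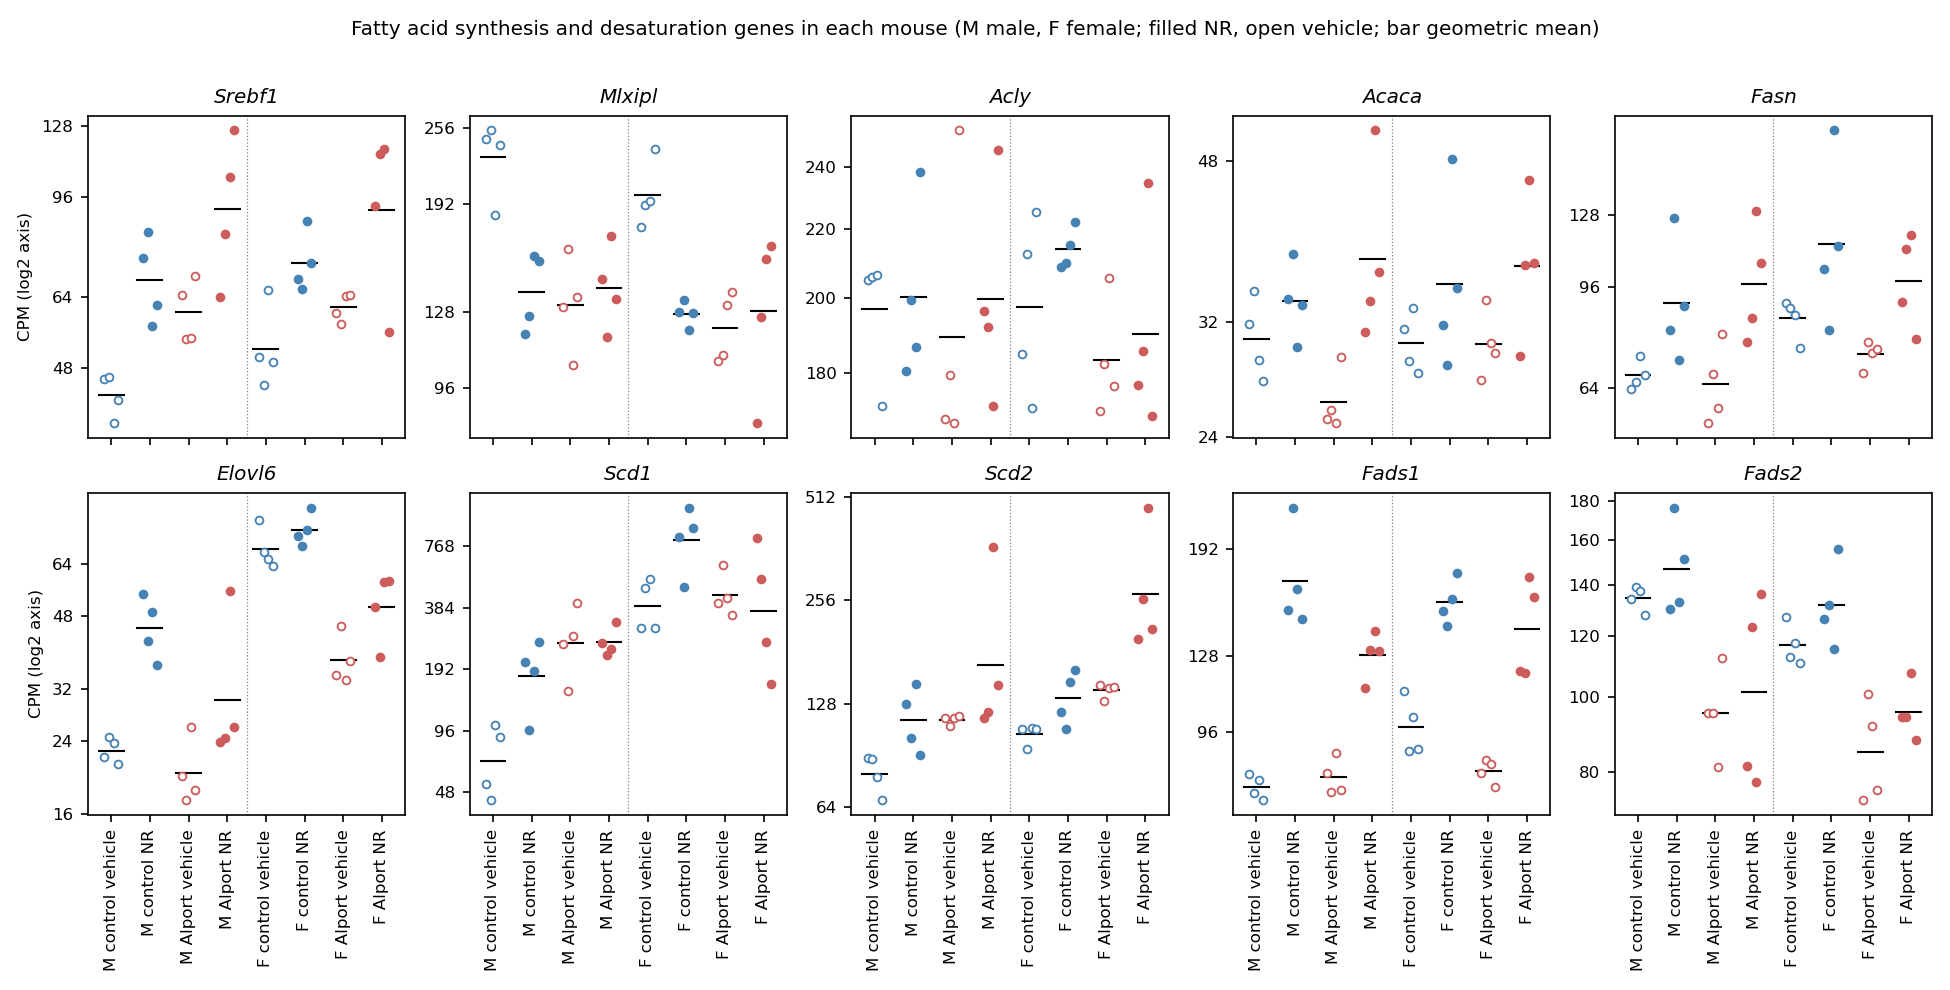
Levels of the 10 genes in each of the 32 mice, in TMM-scaled CPM on a log2 axis that differs between panels, by group; open points are vehicle-treated and filled points NR-treated mice, blue is control and red Alport, and the bar is the geometric mean. Scd1 spans from 43.9 to 1191 CPM and Acly from 168 to 252 CPM. Mlxipl is highest in vehicle-treated controls of both sexes.

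Levels per kilobase used exon lengths of the GENCODE M21 basic set, which may differ from the exons counted. Per kilobase of exon, Mlxipl stood highest in vehicle-treated male controls (63.9 ± 8.73 CPM per kb, SD, n = 4), followed by Acly (42.8 ± 3.65) and Fads2 (42.7 ± 1.60). Acaca (3.24 ± 0.325) and Elovl6 (3.72 ± 0.251) were lowest there. In vehicle-treated female controls Scd1 stood first, at 84.2 ± 24.6 CPM per kb, ahead of Mlxipl (55.2 ± 7.09) and Acly (43.1 ± 5.36). When the 8 groups were put in order of their mean level for each gene, neighbouring groups overlapped in 64 of 70 cases. The 6 gaps were in Scd2, Elovl6, Fads1 and Mlxipl, and vehicle-treated female controls stood on one side of each.

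Several of these genes differed between the sexes in vehicle-treated controls. Compared with males, 5 of the 10 genes were higher in females (edgeR quasi-likelihood test, adjusted p under 0.05) and 0 were lower, beside 15.9% higher and 15.8% lower of 14990 genes tested. The median log2 fold change of the 10 genes was 0.33, beside 0.02 over all genes tested. Scd1 and Elovl6 differed most, and Fasn, Scd2 and Fads1 by less. With RLE factors in place of TMM, Fads2 was also called, as lower (log2 fold change −0.19, adjusted p = 0.0465), and with library totals alone Srebf1 was, as higher (0.47), where 80.1% of all calls were higher against 50.2%.

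Alport mice had more Scd2 and less Mlxipl and Fads2 than controls on vehicle, in both sexes. In males, 3 of the 10 genes rose (Srebf1, Scd1, Scd2) and 2 fell (Fads2, Mlxipl), where 26.8% of 15286 genes rose and 24.2% fell. In females, 1 rose (Scd2) and 3 fell (Elovl6, Fads2, Mlxipl), where 24% of 15709 genes rose and 21.8% fell. These shares are not far from those of all genes, and the medians of the 10 genes were 0.05 in males and −0.12 in females. With library totals alone, 6 rose and 1 fell in males and 3 rose and 2 fell in females, as higher calls then made up 86.3% and 84.1% of all calls in place of 52.5% and 52.3%.

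In control mice, NR went with higher Srebf1, Scd1 and Fads1 and lower Mlxipl in both sexes. In control males 4 of the 10 genes rose, with Elovl6 as the fourth, and 1 fell, where 3.07% of 14696 genes rose and 1.46% fell. In control females 3 rose and 1 fell, where 3.91% of 14951 genes rose and 2.27% fell. With library totals alone, higher calls in control females were 26.2% of all calls in place of 63.2%, and among the 10 genes 2 rose and 1 fell. The medians of the 10 genes were 0.50 in males and 0.29 in females, against −0.00022 and −0.0091 over all genes.

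In Alport mice few calls were made for any gene. In Alport males 0 of the 10 genes passed, as did 0% of 15500 genes in either direction, while 5 of the 10 had an unadjusted p under 0.05 and DESeq2 called 1 (Fads1), beside 62 (0.4%) of all genes. In Alport females 1 rose, Fads1, where 0.388% of 15712 genes rose and 0.0891% fell, 6 of the 10 had an unadjusted p under 0.05, and DESeq2 called 3 (Fasn, Scd2, Fads1), beside 728 (4.63%) of all genes. Higher calls among all genes in Alport females were 55.6% with library totals alone in place of 81.3%. The medians of the 10 genes were 0.56 in males and 0.38 in females, with 9 of 10 log2 fold changes above 0 in each. Mouse 3 of the NR-treated Alport males carried much of the male value: without it the median was 0.25 and 8 of 10 were above 0.

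**Figure D2:**
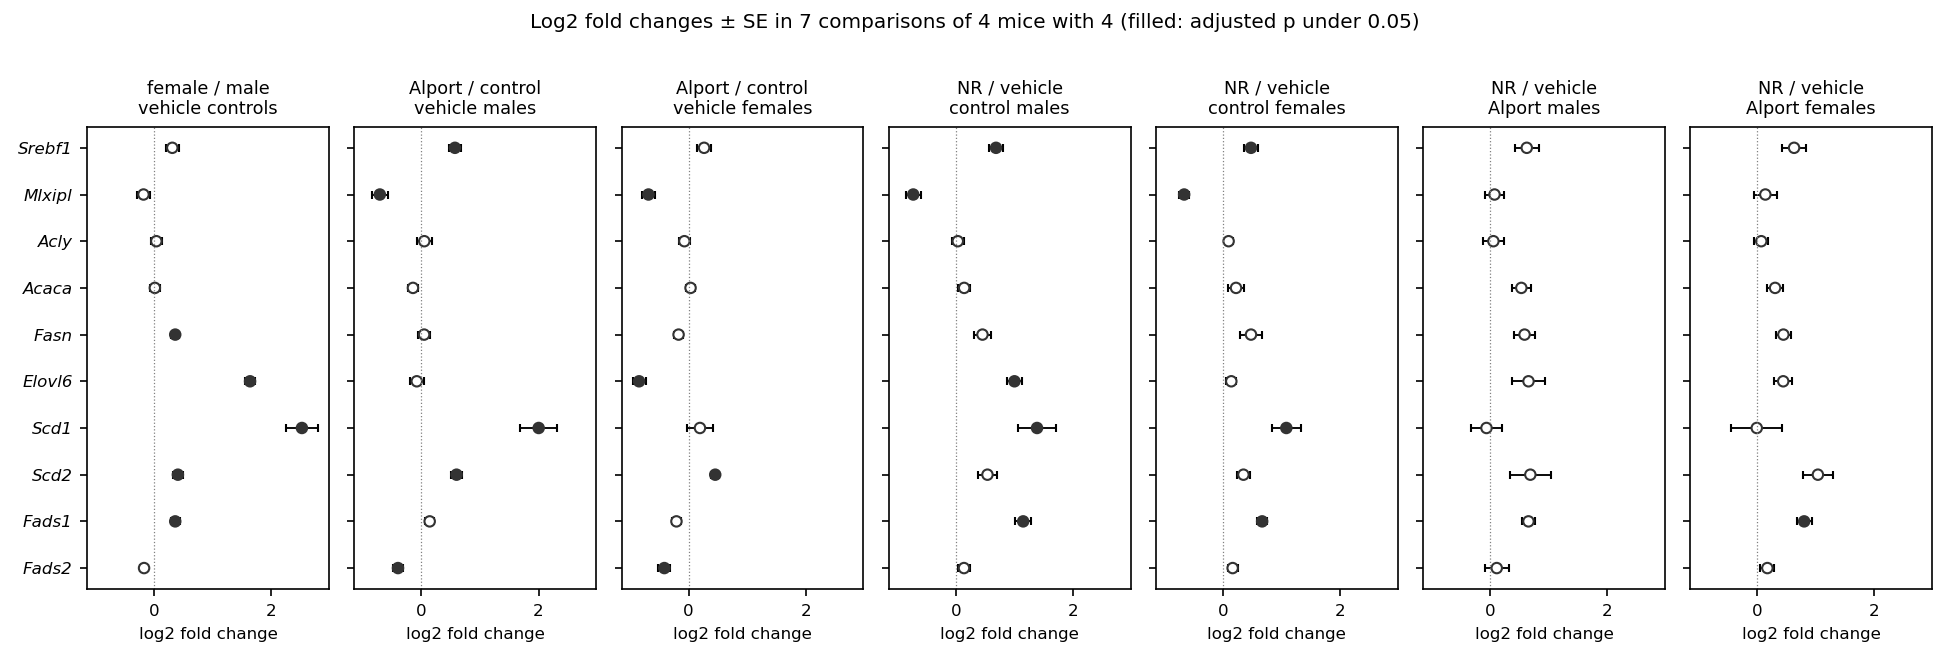
Log2 fold changes ± SE (edgeR) of the 10 genes in 7 comparisons, each of 4 mice with 4; filled points have an adjusted p under 0.05 and open points do not. Comparisons that share the vehicle-treated group as their reference are not independent of each other. Scd1 reaches 2.52 between the sexes, 2.0 between genotypes in males and 1.39 under NR in control males, and Mlxipl is filled below 0 in 4 of the 7.

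Srebf1 encodes both forms of SREBP-1, which these gene-level counts do not separate. In vehicle-treated control males it was at 45.8, 46.2, 38.4 and 42.2 CPM and in NR-treated control males at 75.0, 83.1, 56.8 and 61.9 CPM. All NR-treated mice lay above all vehicle-treated mice (log2 fold change 0.69 ± 0.13 SE, adjusted p = 0.0202). In control females it was at 50.2, 44.7, 65.7 and 49.3 CPM on vehicle and 68.6, 66.1, 86.8 and 73.5 CPM on NR, again without overlap (0.48 ± 0.12, adjusted p = 0.0350). Both calls were near the threshold. In males the call was lost without vehicle-treated mouse 1, 2 or 4 or NR-treated mouse 1 (adjusted p 0.0510–0.0632), and in females without any of 6 mice, namely vehicle-treated 1, 2 or 4 or NR-treated 1, 3 or 4 (0.0621–0.0945), while the fold change stayed at 0.59–0.77 and 0.39–0.61.

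Vehicle-treated Alport males had Srebf1 at 64.4, 53.9, 54.1 and 69.6 CPM, all above the male controls (0.57 ± 0.10, adjusted p = 0.000567). In females the groups overlapped, with Alport mice at 59.9, 57.2, 64.3 and 64.4 CPM, and the difference of 0.26 ± 0.11 did not pass (adjusted p = 0.0780). NR-treated Alport males reached 63.9, 82.6, 104 and 126 CPM, the highest single value of the gene. Their log2 fold change against vehicle, 0.63 ± 0.20, was of the size seen in controls, but the mice were spread and it did not pass (adjusted p = 0.886). It was called without NR-treated mouse 1 (adjusted p = 0.0475), when 380 of all genes were called in place of 0. That mouse stood apart in its markers, with macrophage markers at 960 CPM and fibroblast markers at 1791 CPM against at most 356 and 572 CPM in the other 3 of its group, and above every vehicle-treated Alport male; their part in its Srebf1 level was not tested. NR-treated Alport females were at 92.6, 114, 116 and 55.4 CPM (0.63 ± 0.20, adjusted p = 0.185), with mouse 4 below every vehicle-treated mouse, and without it the adjusted p was 0.00776.

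Mlxipl, the gene of ChREBP, was lower in Alport mice on vehicle and in controls on NR. Vehicle-treated male controls had 246, 254, 185 and 240 CPM, against 130, 162, 105 and 135 CPM in vehicle-treated Alport males. The groups did not overlap (−0.71 ± 0.13, adjusted p = 0.000937). In females, controls had 177, 192, 195 and 237 CPM and Alport mice 106, 109, 131 and 138 CPM (−0.69 ± 0.12, adjusted p = 0.000820). NR-treated control males had 118, 126, 158 and 155 CPM, all below the vehicle-treated males (−0.73 ± 0.13, adjusted p = 0.0190), a call lost without vehicle-treated mouse 1, 2 or 4 (0.0599–0.0694). NR-treated control females had 128, 134, 120 and 127 CPM, a narrow range below every vehicle-treated female (−0.66 ± 0.09, adjusted p = 0.00226), and this call was kept without any one mouse. In 1 fit of all 32 mice the call in control females was lost, at a log2 fold change of −0.65 (adjusted p = 0.114). That fit called 18 of all genes in control females under NR.

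In Alport mice Mlxipl did not pass under NR. NR-treated males were at 145, 116, 170 and 134 CPM and the females at 84.2, 125, 156 and 164 CPM, overlapping the vehicle-treated Alport mice in each sex. The fold change under NR in Alport mice minus that in controls was 0.78 ± 0.22 in males and 0.78 ± 0.22 in females, and neither passed (adjusted p = 0.400 and 0.389). No interaction of NR with genotype passed for any of 15800 genes in males or 16064 in females (0% of them), so that 0 of the 10 genes was called, with 3 and 2 of them at an unadjusted p under 0.05. DESeq2 called 0 of the 10 in each. In females the Mlxipl interaction was called without NR-treated Alport mouse 1 (adjusted p = 0.0275).

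Acly, Acaca and Fasn, the core enzymes of synthesis, gave 1 call among them in the 7 comparisons. Acly stood between 168 and 252 CPM in all 32 mice, and it passed in 0 of the comparisons and 0 of the interactions. Its log2 fold changes under NR were 0.03–0.10. Acaca was at 24.9–51.8 CPM and also passed in none. Acaca was higher in every NR-treated than in every vehicle-treated Alport male, at 31.3, 33.8, 51.8 and 36.3 against 25.1, 25.7, 24.9 and 29.3 CPM, without passing the test (0.53 ± 0.16, adjusted p = 0.855), and the change was 0.35 without NR-treated mouse 3. With library totals alone, Fasn (0.38) and Acly (0.38) in males and Acaca (0.29) in females were called as higher in Alport mice.

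Fasn was higher in female than in male vehicle-treated controls, at 90.0, 88.3, 85.9 and 75.3 CPM against 63.9, 65.5, 72.8 and 67.5 CPM (0.36 ± 0.07, adjusted p = 0.00296), with every female above every male. Under NR its fold changes were of like size in the 4 comparisons and none passed. They were 0.46 ± 0.15 in control males (adjusted p = 0.111), 0.48 ± 0.19 in control females (0.147), 0.59 ± 0.19 in Alport males (0.866) and 0.45 ± 0.13 in Alport females (0.165). In Alport females all 4 NR-treated mice, at 90.3, 112, 118 and 77.8 CPM, were above the vehicle-treated ones, at 68.0, 76.9, 73.7 and 75.0 CPM. NR-treated control female 3 had the highest Fasn of all mice, 180 CPM, and the highest Acaca of its group, 48.2 CPM. Without it the Fasn change in control females was 0.21 and that of Acaca 0.05 in place of 0.22, whereas without NR-treated female 2 the Fasn change was 0.63 and passed (adjusted p = 0.0483). In control males the Fasn change was 0.26 without NR-treated mouse 2.

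The library of NR-treated control female 3 also held the most of 4 fat cell genes of the 10 on the adipocyte list. These were Ucp1 at 3.31, Plin1 at 2.86, Cidea at 2.67 and Adipoq at 0.573 CPM, where the next highest mouse had 0.218, 0.749, 0.335 and 0.150 CPM. Over all mice Adipoq was at 0 in 26 libraries, Lep in 29 and Ucp1 in 18. The summed list stood at 41.1–50.9 CPM in vehicle-treated controls and 55.2–118 CPM in NR-treated controls, most of it Fabp4 and Lipe. It was 40.9–52.9 CPM in vehicle-treated and 56.3–84.5 CPM in NR-treated Alport mice. The 8 genes other than Fabp4 and Lipe overlapped between NR and vehicle in each sex and genotype. In controls they summed to 0.395–1.28 CPM on vehicle and 0.594–1.73 CPM on NR, apart from NR-treated female 3 at 12.2 CPM. In Alport mice they summed to 0.755–1.44 CPM on vehicle and 0.869–3.48 CPM on NR. Of the list, 2 genes had enough counts to be tested in control males and both were higher under NR, Fabp4 by 1.09 and Lipe by 0.83, and in control females 1 of 2 was, Fabp4 by 1.15. Without female 3 the log2 fold changes under NR in control females were 0.39 for Srebf1, 0.89 for Scd1, 0.66 for Fads1 and −0.64 for Mlxipl, against 0.48, 1.08, 0.67 and −0.66 with it. The part of fat cells in these results was not tested.

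Elovl6 differed between the sexes without overlap. Vehicle-treated control females had 81.7, 68.2, 65.5 and 63.2 CPM and males 21.9, 24.5, 23.7 and 21.1 CPM, a log2 difference of 1.64 ± 0.09 (adjusted p = 2.17e-07). In control males NR went with 54.2, 41.7, 49.0 and 36.5 CPM, all above vehicle (1.0 ± 0.13, adjusted p = 0.00541). Control females on NR had 74.7, 70.5, 77.1 and 87.3 CPM, overlapping vehicle, and did not pass (0.14 ± 0.09, adjusted p = 0.360). The female minus the male response to NR was −0.85 ± 0.16 and passed (adjusted p = 0.0273), the only one of the 10 genes to do so, beside 0.683% of 15379 genes in either direction. It was not past a fold limit of 2, and without any of 7 mice, namely vehicle-treated male 1 or 4, NR-treated male 3, vehicle-treated female 3 or NR-treated female 1, 2 or 3, the adjusted p was 0.0502–0.0701. NR-treated control males stood between the vehicle-treated males and females, and the same vehicle-treated males are the reference in both comparisons.

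In Alport females Elovl6 was lower than in controls, at 34.5, 45.4, 33.6 and 37.4 CPM (−0.85 ± 0.11, adjusted p = 0.000212), with no overlap. In Alport males it was 19.7, 17.3, 25.9 and 18.3 CPM and overlapped the controls (−0.08 ± 0.12, adjusted p = 0.621). The difference between the sexes in this change, −0.80 ± 0.18, did not pass (adjusted p = 0.0594), though DESeq2 (0.0104) and the fit without a low-count filter (0.0480) called it. NR-treated Alport females had 50.3, 38.1, 57.7 and 58.1 CPM (0.45 ± 0.15, adjusted p = 0.203). In NR-treated Alport males 1 mouse decided the value: mouse 3 had 54.9 CPM and the others 23.8, 24.3 and 26.0 CPM, so that the log2 fold change of 0.66 ± 0.28 was 0.27 without it.

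Scd1 had the widest range of the 10 genes, from 43.9 to 1191 CPM. Vehicle-treated control males had 52.5, 43.9, 103 and 89.7 CPM and control females 306, 481, 534 and 305 CPM, a log2 difference of 2.52 ± 0.28 (adjusted p = 5.72e-05). Vehicle-treated Alport males were above control males, at 256, 150, 281 and 404 CPM with no overlap (2.0 ± 0.31, adjusted p = 0.000240). In females the groups overlapped, with 404, 625, 431 and 354 CPM in Alport mice (0.19 ± 0.22, adjusted p = 0.510). The change was thus 1.84 ± 0.43 smaller on the log2 scale in females, which did not pass (adjusted p = 0.0721) but was called by DESeq2 (0.0231) and without a low-count filter (0.0467). In that interaction 0 of the 10 genes and 0.532% of 16152 genes passed, and 4 of the 10 had an unadjusted p under 0.05.

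Under NR, Scd1 was called in controls of both sexes and not in Alport mice. Control males had 207, 96.4, 189 and 260 CPM on NR, with mouse 2 below the highest vehicle-treated male (1.39 ± 0.32, adjusted p = 0.0404). Control females had 852, 486, 1191 and 944 CPM on NR, with mouse 2 within the vehicle-treated range (1.08 ± 0.25, adjusted p = 0.0265). Each call was lost in 5 of 8 fits without 1 mouse: in males without vehicle-treated 1, 2 or 4 or NR-treated 1 or 3 (0.0823–0.121), in females without vehicle-treated 1 or 4 or NR-treated 1, 3 or 4 (0.0531–0.0749). In Alport males NR-treated mice had 259, 225, 241 and 328 CPM (−0.06 ± 0.27), and in Alport females 847, 532, 261 and 163 CPM, from above to below every vehicle-treated mouse (−0.01 ± 0.43). The difference of the NR response between genotypes did not pass in males (−1.47 ± 0.46, adjusted p = 0.420) or in females (−1.11 ± 0.55, 0.550), so the responses were not shown to differ.

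Scd2 was higher in Alport mice of both sexes: 116, 110, 116 and 118 CPM against 89.0, 88.2, 78.4 and 67.2 CPM in males (0.60 ± 0.09, adjusted p = 0.000191), and 145, 130, 142 and 143 CPM against 108, 94.9, 109 and 108 CPM in females (0.45 ± 0.07, adjusted p = 0.000481). Neither pair of groups overlapped. Females also stood above males among vehicle-treated controls (0.40 ± 0.09, adjusted p = 0.00607). In 1 fit of all 32 mice, which shares 1 spread among the groups, these 3 calls were lost (adjusted p = 0.110, 0.225 and 0.345) at fold changes of 0.51, 0.42 and 0.38.

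NR-treated Alport females had the highest mean Scd2 level, at 197, 257, 476 and 211 CPM, all above vehicle, with a log2 fold change of 1.04 ± 0.25 that did not pass (adjusted p = 0.120) and was 0.67 without mouse 3. DESeq2 (0.00304) and the fit of all mice (0.0430) called it. In NR-treated Alport males mouse 3 stood apart at 365 CPM, with the others at 117, 121 and 145 CPM, and the log2 fold change was 0.69 ± 0.35 with it and 0.14 without it. That mouse had the lowest summed proximal tubule markers of all 32 mice, 3852 CPM, while its summed macrophage markers (189 CPM) were the lowest and its fibroblast markers (382 CPM) the second lowest of its group. Their part in its Scd2 and Elovl6 levels was not tested. In controls Scd2 was 0.54 ± 0.16 higher in males (adjusted p = 0.0800) and 0.35 ± 0.11 in females (0.0811), and DESeq2 called both (0.0194 and 0.0307).

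The ratio of Scd1 to Scd2 counts in a library does not depend on scaling. In vehicle-treated control males it was 0.589, 0.497, 1.31 and 1.33, and in Alport males 2.21, 1.36, 2.41 and 3.42, with every Alport mouse above every control (difference of mean log2 ratios 1.40, two-sided exact permutation p = 0.0286, the smallest that 4 against 4 mice allow). Adjusted over the 6 comparisons made, p was 0.171, so that it did not pass. In females the ratio was 2.83, 5.07, 4.92 and 2.83 in controls and 2.79, 4.80, 3.03 and 2.48 in Alport mice (−0.25, exact permutation p = 0.400). NR-treated controls had higher mean log2 ratios than vehicle-treated ones, by 0.87 in males (exact p = 0.200) and 0.72 in females (exact p = 0.0857). In NR-treated Alport mice the mean was lower, by 0.50 in males (exact p = 0.400) and 1.19 in females (exact p = 0.200). None of the 6 passed after adjustment, and with 3 mice against 4 the test cannot go below 0.0571.

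**Figure D3:**
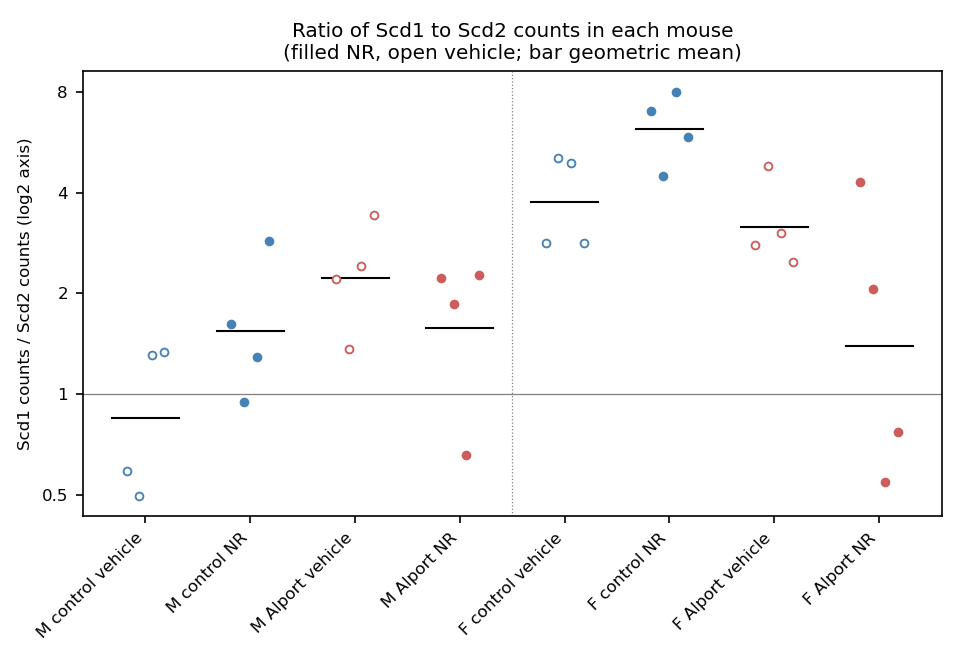
Ratio of Scd1 to Scd2 counts in each mouse on a log2 axis, by group, with open points for vehicle and filled points for NR, and bars at the geometric mean; the line marks a ratio of 1. Scd1 exceeded Scd2 in every female on vehicle or among controls, and the ratio fell below 1 in 2 vehicle-treated and 1 NR-treated control males and in 1 male and 2 female NR-treated Alport mice.

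Fads1, the δ5 desaturase, passed under NR in 3 of the 4 comparisons. Control males were at 81.9, 76.3, 80.2 and 74.2 CPM on vehicle and 152, 225, 165 and 148 CPM on NR (1.15 ± 0.13, adjusted p = 0.00302). Control females were at 112, 89.5, 102 and 90.0 CPM on vehicle and 152, 144, 159 and 175 CPM on NR (0.67 ± 0.09, adjusted p = 0.00221). All NR-treated mice lay above all vehicle-treated mice in both, and both calls were kept without any one mouse. The response was 0.47 ± 0.16 smaller in females than in males, which did not pass (adjusted p = 0.166).

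In Alport mice Fads1 was the 1 gene of the 10 called under NR. Alport females were at 82.4, 86.4, 85.0 and 78.0 CPM on vehicle and 121, 120, 173 and 161 CPM on NR (0.80 ± 0.13, adjusted p = 0.0278). The groups did not overlap, but the call was lost without any vehicle-treated mouse or NR-treated mouse 3 (0.0541–0.128). Alport males were at 82.1, 76.5, 88.7 and 77.2 CPM on vehicle and 113, 131, 141 and 130 CPM on NR, also without overlap. Their change of 0.66 ± 0.11 did not pass with edgeR (adjusted p = 0.306) and was called by DESeq2 (6.40e-06), by the fit of all 32 mice (0.00505) and without NR-treated mouse 1 (0.0261). No interaction of sex and NR passed in Alport mice for any of 16189 genes (0%), hence 0 of the 10 genes, with 0 of them at an unadjusted p under 0.05 and 0 called by DESeq2. Between genotypes on vehicle, Fads1 did not pass in males (0.14 ± 0.07, adjusted p = 0.131) or in females (−0.21 ± 0.08, 0.0596), where DESeq2 called it lower (0.0461). Vehicle-treated control females were above males (0.36 ± 0.08, adjusted p = 0.00532).

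Fads2, the δ6 desaturase, was lower in Alport mice and not called under NR. Vehicle-treated Alport males had 95.3, 95.5, 81.2 and 112 CPM against 134, 139, 138 and 128 CPM in controls (−0.40 ± 0.09, adjusted p = 0.00338). Alport females had 73.6, 101, 91.7 and 75.9 CPM against 127, 113, 118 and 111 CPM (−0.41 ± 0.10, adjusted p = 0.00813). Neither pair of groups overlapped. Both calls were lost with library totals alone, at −0.07 (adjusted p = 0.409) and −0.15 (0.165). The median log2 fold change over all genes tested was then 0.34 in males and 0.26 in females. Under NR the log2 fold changes were 0.11–0.17 in all 4 comparisons, with adjusted p of 0.270–0.962.

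Markers of cell types moved with genotype beside these genes. Among all genes tested, 26.8% rose and 24.2% fell in Alport males, and 24% rose and 21.8% fell in Alport females. Of 10 proximal tubule markers, 10 fell in Alport males and 9 in Alport females, and their summed level was 10187–16836 CPM in vehicle-treated Alport males against 31665–32781 CPM in controls, and 6707–11068 against 15537–18946 CPM in females. All 8 macrophage markers rose in both sexes, from 69.6–92.3 to 491–672 CPM in males and from 84.1–153 to 387–695 CPM in females. All 7 fibroblast markers rose too, from 103–118 to 891–1448 CPM and from 126–204 to 719–1183 CPM. Podocyte markers rose in 6 and 5 of 6, endothelial markers in 5 and 4 of 6, and lymphocyte markers in 6 and 4 of 6 tested, while 5 of 8 distal nephron markers fell in each sex. Of the adipocyte list, Fabp4 rose and Lipe fell in both sexes. Their part in the changes of the 10 genes was not tested.

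Under NR, control males also moved in these lists. Their summed proximal tubule markers were 14611–27953 CPM, below all vehicle-treated males, although 1 of the 10 genes passed on its own (Slc5a2, −0.47) and the list median was −0.32. Kap, an androgen-regulated gene of the proximal tubule, made up 1431–9853 CPM of that sum against 10955–13304 CPM on vehicle (−1.38 ± 0.49, adjusted p = 0.130), and the other 9 genes summed to 12516–18100 against 19025–20788 CPM. In the same males 5 of 6 endothelial, 3 of 7 fibroblast and 2 of 8 macrophage markers rose, while 1 of 8 distal nephron markers fell and 0 podocyte or lymphocyte markers passed. The shares of all genes under NR were 3.07% rising and 1.46% falling in control males, and 3.91% and 2.27% in control females. In control females 1 of 10 proximal tubule markers fell (Cubn, −0.34), 2 of 8 distal nephron markers rose and 1 fell, and 0 of the podocyte, lymphocyte, endothelial, fibroblast and macrophage markers passed. In Alport mice 0 of the markers passed under NR in either sex. Among all genes 0% passed in Alport males, and 0.388% rose and 0.0891% fell in Alport females. List medians in Alport females ran from −0.77 (macrophage, 4 of 8 at an unadjusted p under 0.05) to 0.59 (adipocyte, 2 of 4). In Alport males they ran from −0.78 (lymphocyte, 1 of 6) to 0.63 (adipocyte, 1 of 3). Between the sexes, vehicle-treated control females had lower summed proximal tubule markers than males, with 4 of 10 lower and 1 higher and a list median of −0.12. Kap was at 239–1644 CPM in these females (−3.76 ± 0.44, adjusted p = 8.38e-05), and the other 9 genes summed to 15298–17302 CPM, still below the males. The females had higher podocyte (6 of 6), fibroblast (5 of 7), distal nephron (3 of 8), endothelial (3 of 6) and macrophage markers (2 of 8). Among all 14990 genes tested, 15.9% were higher and 15.8% lower in females. Whether any of this bears on the 10 genes was not tested.

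The regulators around SREBP and ChREBP gave few calls under NR, and these were of the same genes in both sexes of controls. Of 12 regulators, Insig1, which holds SREBP precursors back and is itself an SREBP target, rose by 1.44 ± 0.15 in control males (adjusted p = 0.00195), 1.23 ± 0.13 in control females (0.00124) and 2.28 ± 0.26 in Alport females (0.00932). In Alport males its fold change was 1.82 ± 0.46 and did not pass (0.706). Srebf2, which encodes the SREBP of cholesterol synthesis, rose by 0.49 ± 0.07 in control males (0.0102) and 0.25 ± 0.06 in control females (0.0287). In Alport mice on vehicle 2 of the 12 rose and 4 fell in males, and 2 rose and 5 fell in females, where 26.8% of all genes rose and 24.2% fell in males and 24% and 21.8% in females. The same shares of all genes apply to the other pathway lists. For counts under NR, 3.07% of all genes rose and 1.46% fell in control males, and 3.91% and 2.27% in control females. In Alport mice under NR 0% of all genes passed in males, and 0.388% rose and 0.0891% fell in females. The largest called change among the 12 regulators in Alport mice on vehicle was that of Insig1. It fell by 0.74 on the log2 scale in males and by 1.06 in females.

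Of 8 genes that supply acetyl-CoA and NADPH, 5 rose under NR in control females: Pgd (0.82 ± 0.13), Slc25a1 (0.52 ± 0.06), Me1 (0.51 ± 0.13), Idh1 (0.39 ± 0.09) and G6pdx (0.32 ± 0.07). Slc25a1 is the mitochondrial citrate carrier, and the other 4 encode enzymes that make NADPH. In control males Pgd rose (1.05 ± 0.20) and Aacs, acetoacetyl-CoA synthetase, fell (−1.06 ± 0.25), and the other 6 did not pass. In Alport mice 0 of 8 passed under NR, where 0% of all genes passed in males and 0.388% rose in females. Unadjusted p was under 0.05 for 2 of 8 in Alport males and 5 of 8 in Alport females. List medians under NR were 0.16 and 0.39 there, against 0.08 in control males and 0.35 in control females. On vehicle, 2 rose and 5 fell in Alport males and 1 rose and 5 fell in Alport females, led by Aacs (−1.16 ± 0.17 and −0.98 ± 0.26), with list medians of −0.51 and −0.42. Between the sexes 6 of the 8 were lower in females, where 15.8% of all genes tested were lower.

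Among 15 other elongases, desaturases and their partners, 12 or 13 had enough counts to be tested. In control males 3 rose under NR, Elovl2 (0.80 ± 0.17), Tecr (0.50 ± 0.11) and Elovl5 (0.34 ± 0.09), and in control females 1 did, Hsd17b12 (0.28 ± 0.07). Elovl2 and Elovl5 lengthen polyunsaturated fatty acids, and Hsd17b12 and Tecr carry out later steps of each elongation round. In Alport mice 0 passed under NR, with 0 of 12 in males and 4 of 13 in females at an unadjusted p under 0.05. List medians under NR were 0.19 in Alport males and 0.11 in Alport females, against −0.0014 and 0.10 in controls. On vehicle 8 fell and 1 rose in Alport males, with Scd3 (−1.02 ± 0.31) the largest, and 7 fell and 0 rose in Alport females, with Fads6 (−1.17 ± 0.16) the largest. The list medians were −0.36 and −0.29.

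Of the 5 partners of acetyl-CoA carboxylase and lipogenic accessory genes, 1 rose under NR in control males, Mid1ip1 (0.48 ± 0.11), which promotes assembly of acetyl-CoA carboxylase, and 0 in the other 3 comparisons. In Alport mice 2 rose and 2 fell in males, with Pnpla3 (1.13 ± 0.33) the largest, and 1 rose and 2 fell in females, with Acacb (−0.83 ± 0.10) the largest. Triglyceride synthesis, with 9 genes tested, had 0 calls under NR in any group, where 0–3.91% of all genes rose and 0–2.27% fell. Its log2 fold changes under NR were above 0 for 9 of 9 in each Alport sex, and for 6 and 7 in control males and females. Unadjusted p was under 0.05 for 4 in each control sex, 0 in Alport males and 2 in Alport females. In Alport mice on vehicle 4 of the 9 fell in males, led by Lpin1 (−1.13 ± 0.15), and 3 in females, led by Dgat2 (−1.13 ± 0.15). All 5 tested genes of the separate fatty acid synthesis of mitochondria fell in Alport mice of both sexes, with Oxsm (−0.68 ± 0.08 and −0.68 ± 0.10) the largest. Of these, Ndufab1 rose under NR in control females (0.24 ± 0.05).

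Targets shared with other regulators were counted as well. Of 5 tested targets of LXR, the oxysterol receptor that also drives Srebf1, Lpcat3, which remodels phospholipids, rose under NR in control males (0.77 ± 0.12), control females (0.65 ± 0.09) and Alport females (0.86 ± 0.09), while Smpdl3a fell in control males (−0.55 ± 0.10). The LXR target Abcg1, a sterol exporter, was the largest in Alport mice on vehicle, up by 2.03 ± 0.14 in males and 1.67 ± 0.16 in females, where 2 of 5 rose and 1 fell in each sex. Of 7 ChREBP targets outside fatty acid synthesis, 0 passed under NR in the 4 comparisons, where 0–3.91% of all genes rose and 0–2.27% fell. List medians were 0.04 in control males, 0.02 in control females, 0.24 in Alport males and 0.26 in Alport females. Mlxipl fell in both control groups, and whether this bears on these targets was not tested. In Alport mice on vehicle 5 of the 7 fell and 1 rose in each sex, with Khk, ketohexokinase, at −0.92 ± 0.14 in males and −1.07 ± 0.19 in females.

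Mice of a group differed together in few of these genes. After removing group means, 2 of 45 pairs were correlated over the 32 mice by Pearson's r with adjusted p under 0.05 (permutation within groups, 100000 resamples): Fasn with Acaca (r = 0.795, permutation p = 4e-05, adjusted p = 0.00180, Spearman's rho 0.658 with permutation p = 0.00048 and adjusted p = 0.0216) and Srebf1 with Fasn (r = 0.639, permutation p = 0.00077, adjusted p = 0.0173, rho 0.571 with permutation p = 0.00703 and adjusted p = 0.0712). Without the 2 mice farthest from the median of the first gene, r was 0.738 and 0.579. Over the 45 pairs r ran from −0.557 (Scd1 with Mlxipl, adjusted p = 0.107) to 0.795, with a median of 0.189. With library totals alone 6 pairs passed, and among the 16 vehicle-treated mice 1 did.

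**Figure D4:**
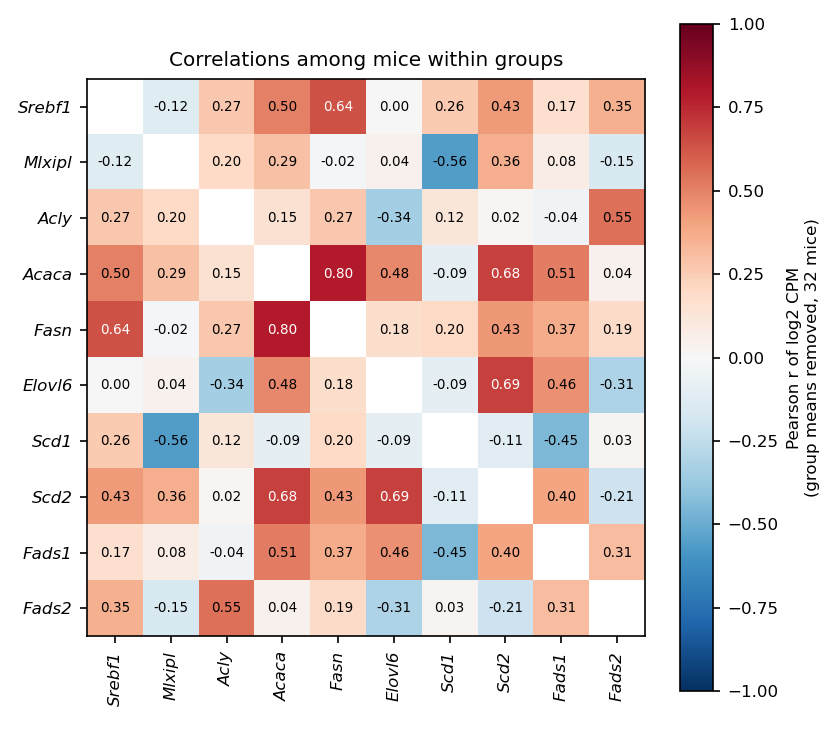
Pearson's r for each pair of the 10 genes over 32 mice after group means of log2 CPM were removed, from blue (−1) to red (1), with the diagonal left blank. Fasn with Acaca is the strongest pair at 0.795, and Scd1 with Mlxipl the lowest at −0.557.

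Outside the list, the genes whose log2 CPM over the 32 mice was among the most like the mean of the 10 standardised genes, of 16459 genes, included Acsl3 (r = 0.817), an acyl-CoA synthetase, and Gsta2 (r = 0.814), a glutathione S-transferase. These r describe 32 mice that share their groups. The mean of the standardised genes was lowest in vehicle-treated Alport males (−0.683 ± 0.369, SD, n = 4) and highest in NR-treated control females (0.668 ± 0.392).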

How the data were processed

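RNA from kidney cortex of 32 mice was sequenced after poly(A) selection. The authors processed the reads with BioJupies and deposited counts per gene, not normalized, with mm10 named in the submitters' processing notes; the aligner version, annotation and strandedness are not given in the sources used here. A second deposited table of log10 values (log10 of CPM plus 1) was computed from those counts and served only as a check. Library totals were 16621944–27778797 counts, and 7938 of 32544 genes had 0 counts in every mouse.

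Each comparison was fitted on its own groups with edgeR 4.0.16 in R 4.3.3 (filterByExpr, minimum count 10, TMM, quasi-likelihood F test, Benjamini-Hochberg adjustment over all genes tested, threshold 0.05), with SE taken as the log2 fold change over the square root of F. Interactions used the 4 groups concerned. The procedure was tested on simulated data. Alternatives were RLE factors, no scaling (chosen after seeing the data), other count filters, DESeq2 1.42.0, limma-voom (limma 3.58.1), all 32 mice in 1 fit, a replicate block and leaving out each mouse. Deviations of mice with the same replicate number correlated at −0.167 to 0.261 in 24 pairs, over 0.1 in 5, so the numbers were not treated as pairs. Litters were balanced over treatments by the study, but litter was not a term here. The genes and gene lists were chosen with earlier results of these data known. All 10 genes were named; from each pathway list, genes called under NR and the largest called change in Alport mice of each sex were named. The 3 genes outside the list most like the mean of the 10 by Pearson's r were also to be named, and 1 of them is not reported here.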

Additional observations from a re-analysis of the deposited data

Results flagged for a closer look

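In 5 of the 80 sets of 4 mice (10 genes in 8 groups), 1 mouse stood apart by a gap, as a share of its group's range, above Dixon's critical value, where chance gives about 1 in 20. Scd2 was highest in NR-treated Alport male 3 at 365 CPM (next 145 CPM), and Elovl6 was highest in the same mouse at 54.9 CPM (next 26.0 CPM). Acly was highest in vehicle-treated Alport male 4 at 252 CPM, above 180 CPM in the next, and lowest in vehicle-treated control male 4 at 172 CPM, below 205 CPM. Scd2 was lowest in vehicle-treated control female 2 at 94.9 CPM, below 108 CPM.

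The response of Elovl6 to NR in controls differed between the sexes, with a female minus male log2 fold change of −0.85 (edgeR interaction, adjusted p = 0.0273).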

How the results depend on the processing

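Alternatives are given for the counts of calls, the ratios and the 59 of 120 log2 fold changes that had an unadjusted p under 0.05 or were called under any setting, a limit set after the labels of all had been seen; of the other 61, never called, 39 changed sign under an alternative. Leaving out 1 mouse kept direction and side of the threshold in 500 of 560 refits, and the other settings in 430 of 472. The number of the 10 genes called changed as follows. In Alport males under NR (0), DESeq2 and the fit of all 32 mice each called 1, beside 62 and 88 of all genes. In Alport females under NR (1), DESeq2 called 3 and the fit of all mice 2, beside 728 and 253 of all genes. With the fit of all mice, calls were 1 in control females under NR (in place of 4), 2 between the sexes (5) and 0 for sex and NR in controls (1), where a fold limit of 2 also left 0. Calls over all genes fell too. They were 18 in control females under NR, in place of 584 higher and 340 lower. Between the sexes they were 2799, in place of 2386 higher and 2370 lower, and for sex and NR 7 in place of 105. For sex and genotype (0), DESeq2 called 2 and the fit without a low-count filter 2, beside 260 and 84 of all genes in place of 86. Correlated pairs (2) were 6 without TMM and 1 in vehicle-treated mice. Without 1 mouse, calls were 5–5 and 4–6 for Alport males and females, 0–2 and 0–2 for NR in Alport males and females, 2–6 and 2–6 for NR in control males and females, 5–6 for sex, 0–2 for sex and genotype, 0–0 and 0–1 for NR and genotype in males and females, and 0–1 and 0–0 for sex and NR in controls and Alport mice. Calls over all genes moved in the same refits. Under NR they were 0–380 in Alport males, 9–166 in Alport females, 74–1886 in control males and 395–809 in control females. They were 6872–7965 and 6049–7652 between genotypes in males and females, and 3808–4380 between the sexes. Directions reversed for Fasn (−0.0403; −0.0596 to 0.12 without 1 mouse) and Acly (−0.0379; −0.11 to 0.11) in Alport males with all mice in 1 fit, for Acaca in Alport females (−0.0043; −0.0368 to 0.0812), and without TMM for Fasn (0.0916) and Fads1 (0.0572) in Alport females. With the replicate block, 0 of the 10 genes were called in Alport females under NR (Fads1 0.78, adjusted p = 0.0968), beside 58 of all genes. Mlxipl was lost in control males under NR (adjusted p = 0.0568), where 309 of all genes were called. Srebf1 was gained in Alport females on vehicle (0.28, adjusted p = 0.0283). The cause of these changes was not tested.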
